A study of Arabidopsis thaliana with 24 samples.

Results

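The anthocyanin enzymes and regulators described here are 10 genes of Arabidopsis thaliana, chosen by gene identifier. Of these, 7 make, decorate or carry the pigment (DFR, LDOX, UGT78D2, UF3GT, UGT75C1, 5MAT and TT19) and 3 regulate it (PAP1, TT8 and MYBL2). The authors' count table gave values for 9 of the 10 among its 18430 genes, and all 9 passed the filter on low counts that left 18205 genes. Transcript levels of TT8 are not analysed here, but its chromosomal region is.

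RNA was sequenced from whole seedlings aged 14 days, either wild type (wt) or mutant in the gene of the transcription factor bZIP68 (bzip68). The seedlings grew on agar with 3% sucrose in cycles of 16 h light at 125 µmol per square metre per second and 8 h dark. They were sprayed either with 0.01% Triton X-100 (mock) or with 5 mM hydrogen peroxide in the same detergent (H2O2), giving 4 groups of 3 libraries. Sugar, light regime and detergent were therefore shared by every group, controls included. For chromatin immunoprecipitation (ChIP-seq), 3 samples of bZIP68-FLAG seedlings and 3 of GFP-FLAG seedlings aged 8 days, on the same medium and light, were precipitated with a FLAG antibody. The sources used here do not give the mutant allele, the promoters and background of the FLAG lines or the time between spraying and harvest. The labels do not say that replicates were separate cultures, so p-values measure the spread between libraries, which may be technical.

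Anthocyanins are red to purple flavonoid pigments of the vacuole. Their synthesis branches from flavonol synthesis at the dihydroflavonols, and in vegetative Arabidopsis tissue the late genes of the branch are switched on by a complex of a MYB factor such as PAP1, a bHLH factor such as TT8 and the WD40 protein TTG1. MYBL2 is a small MYB protein that enters this complex and represses it. bZIP68 belongs to the group G basic leucine zipper factors, which bind the G-box, CACGTG, a palindrome that reads alike on both strands.

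BZIP68 itself had 74, 82 and 102 counts in mock wt, 87, 93 and 70 in H2O2 wt, 2, 1 and 1 in mock bzip68 and 2, 0 and 2 in H2O2 bzip68, so the genotype labels held in all 12 libraries. Library totals ran from 8997073 to 10262992 counts. A pair of libraries stood apart. In H2O2 wt replicate 2, chloroplast genes took 0.0121% of the counts (1.05% to 1.54% elsewhere), and it differed from its partners with a chi-square per degree of freedom of 16.2 and 15.8. For mock bzip68 replicate 2 these values were 28.3 and 13.2, and all other replicate pairs lay between 6.06 and 8.93. Calls lost or gained when both were left out are named beside the results. Of 8 markers of green shoot tissue, 8 were detected, with a summed level of 34900 to 46800 CPM (counts scaled to library size). Of 14 root markers, 12 were detected, and their summed level was 105 to 133 CPM in mock wt, 141 to 188 in mock bzip68, 84.7 to 125 in H2O2 wt and 79.2 to 102 in H2O2 bzip68. CASP5, RSL4 and the 6 seed coat markers were not analysed here. In whole seedlings, fewer cells of a type and less RNA per cell cannot be told apart.

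In the authors' larger peak list bZIP68-FLAG had peaks at most of the anthocyanin genes, and none of these peaks was in the authors' stricter list. The larger list, in which 5424 genes have a peak, used GFP-FLAG as the input and a p-value limit of 1e-05. Each peak's score is the authors' own, a log-scaled p-value that grows as p falls. The authors assigned a peak to 6 of the 10 genes, namely DFR, LDOX, UGT78D2, 5MAT, TT19 and MYBL2, where 22.6% of the genes in the count table had one. Scores at the 6 genes ran from 139.44 to 279.5, with 3 of 6 above the list's median of 148.95. None of the 10 genes was in the authors' shorter list, whose lowest score was 300.01 and which covered 3.88% of genes. That list was limited by the authors' adjusted p of 1e-30 and to distances from -1500 to 500 bp from the start. The 5MAT peak, at 773 bp by the authors' distance, lay outside that range as well as below that score. No peak was assigned to UF3GT, UGT75C1, PAP1 or TT8. Counting every peak within 1000 bp of a gene body instead brought the number to 7 of 10, by adding TT8, against 35.9% of nuclear genes. The peak lists carry no values per sample, so none of these counts has a replicate error.

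DFR, dihydroflavonol reductase, takes the first step committed to anthocyanins and the related proanthocyanidins. LDOX, the leucoanthocyanidin dioxygenase that follows, makes the coloured anthocyanidin. DFR (AT5G42800) lies on the minus strand at chr5:17164093-17166032 and its peak, chr5:17165077-17166303 with a score of 139.44, spans the start of transcription from 271 bp upstream to 955 bp inside the gene. The peak holds 3 G-boxes. Their places are the last bases before the start, the untranslated first exon and a coding exon, while the peak's centre falls in an intron. A second peak nearby, chr5:17166609-17167201 with a score of 106.22, was assigned by the authors to the neighbour AT5G42810 and holds 2 G-boxes. LDOX (AT4G22880), on the minus strand at chr4:12004726-12006209, has a peak at chr4:12006060-12006910 with a score of 141.26 centred at -276 bp from its start, and the only G-box in it lies 23 bp from the centre. The stretches below are RefSeq sequence of TAIR10.1, read 5′ to 3′ on the genes' own minus strand, and the capitals mark the G-boxes. They show the upstream part of the DFR peak at chr5:17166033-17166303, the exon site at chr5:17166006-17166035 and the centre of the LDOX peak at chr4:12006409-12006608.
DFR upstream: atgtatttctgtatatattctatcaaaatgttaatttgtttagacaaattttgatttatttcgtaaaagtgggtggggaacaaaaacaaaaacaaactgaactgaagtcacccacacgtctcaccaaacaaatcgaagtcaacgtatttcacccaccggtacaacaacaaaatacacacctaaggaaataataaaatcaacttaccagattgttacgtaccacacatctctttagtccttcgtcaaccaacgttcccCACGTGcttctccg
DFR exon site: ccggttggtactCACGTGaccggcagcttc
LDOX upstream: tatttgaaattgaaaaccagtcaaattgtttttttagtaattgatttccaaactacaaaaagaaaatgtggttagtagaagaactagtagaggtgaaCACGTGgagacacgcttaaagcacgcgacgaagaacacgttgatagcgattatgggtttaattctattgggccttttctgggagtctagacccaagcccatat

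The first of these stretches ends at the base before the RefSeq start of DFR, so its G-box begins 14 bp upstream of that start. The exon site begins at base 10 of the RefSeq transcript. They lie 353 and 330 bp from the centre of the peak. In the LDOX stretch a further ACGT core, the letters shared by the G-box and other bZIP sites, follows the G-box in lower case.

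At UGT78D2, TT19, 5MAT and TT8 the peak centres lay in coding exons of the genes themselves. UGT78D2 (AT5G17050, chr5:5607788-5609589, minus strand) adds the first sugar to anthocyanidins and also to flavonols. Its peak at chr5:5608857-5609636, score 146.65, has 1 G-box in a coding exon. A second peak, chr5:5606402-5607381 with a score of 128.7, lies past the end of UGT78D2 and was assigned to AT5G17040. TT19 (AT5G17220, chr5:5658416-5659661, plus strand) is the glutathione S-transferase that carries anthocyanins towards the vacuole. Its peak at chr5:5658726-5659483, score 151.24, holds no G-box but 1 C-box, GACGTC, another bZIP motif. TT8 (AT4G09820, chr4:6181881-6186523, plus strand) has a peak near its far end at chr4:6185218-6186174, score 203.98, with 1 G-box in a coding exon, which the authors assigned to the neighbour AT4G09830 at a distance of -2593 bp. 5MAT (AT3G29590, chr3:11398592-11400332, minus strand) has a peak at chr3:11398649-11399493, score 262.22, with ACGT cores but no G-box or C-box. The motifs with their flanks, on the strand of each gene and with the motif in capitals, come from chr5:5609327-5609386, chr5:5659035-5659094, chr4:6185622-6185681 and chr3:11398922-11398981.
UGT78D2: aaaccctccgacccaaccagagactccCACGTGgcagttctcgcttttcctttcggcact
TT19: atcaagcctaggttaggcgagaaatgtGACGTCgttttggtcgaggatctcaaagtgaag
TT8: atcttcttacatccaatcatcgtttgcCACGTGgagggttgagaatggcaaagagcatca
5MAT: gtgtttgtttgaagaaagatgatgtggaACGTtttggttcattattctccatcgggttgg

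The regulator MYBL2 (AT1G71030, chr1:26795052-26796532, minus strand) had the highest score of the 6, 279.5, for a broad peak of 2267 bp at chr1:26796964-26799230. Counted from the MYBL2 start, the peak ends at -432 bp, and its centre, at -1565 bp, lies in a coding exon of the neighbour AT1G71040. It holds 9 ACGT cores and no G-box. UF3GT (AT5G54060, chr5:21936746-21938396, minus strand), which adds xylose to anthocyanin glucosides, is the opposite case, with no peak but 2 G-boxes close to its start. The ACGT nearest the centre of the MYBL2 peak, at chr1:26798033-26798092, and the 200 bases before the UF3GT start, at chr5:21938397-21938596, are shown on the minus strand with ACGT and CACGTG in capitals.
MYBL2: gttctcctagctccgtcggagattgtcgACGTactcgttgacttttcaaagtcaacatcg
UF3GT: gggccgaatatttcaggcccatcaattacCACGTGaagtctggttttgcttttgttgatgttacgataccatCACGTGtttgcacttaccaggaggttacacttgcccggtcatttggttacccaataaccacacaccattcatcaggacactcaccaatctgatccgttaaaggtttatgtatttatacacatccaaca

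The G-boxes of UF3GT begin 171 and 128 bp before the start. Over the window from 250 bp before to 50 bp after the RefSeq gene start, CACGTG stood in 2 of the 10 genes, DFR and UF3GT, and in 7.68% of 27443 such windows genome-wide. ACGT, searched on both strands and contained in both longer motifs, stood in 4 of 10 against 49.9%, and GACGTC in 0 of 10 against 2.88%. In the central 300 bp of the peaks, 2 of the 6 genes with an assigned peak had a G-box (LDOX and UGT78D2) against 31.0% of 5734 nuclear peaks, 6 of 6 had ACGT against 76.5%, and 1 of 6 had GACGTC against 7.05%. Over whole peaks, which differ in width, 3 of 6 held a G-box. The share over all whole peaks was not counted, and the 31.0% for central 300 bp is no measure for it. A motif match is a description of letters and not evidence of binding at that base.

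**Figure D1:**
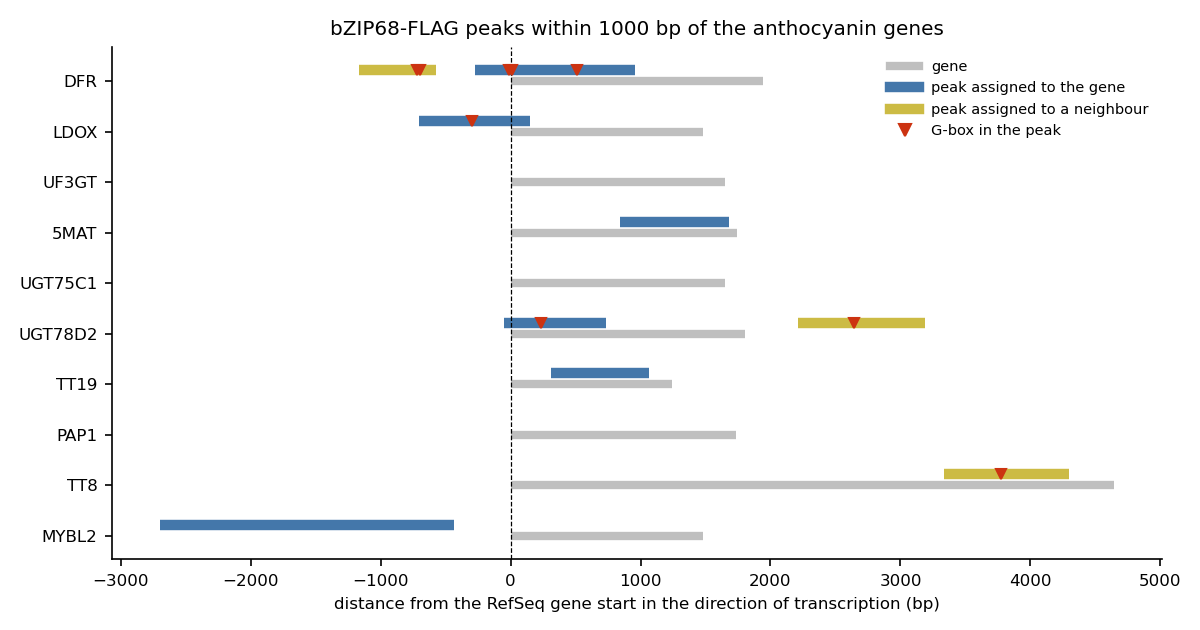
Peaks of bZIP68-FLAG within 1000 bp of the 10 genes, drawn by distance in bp from the RefSeq gene start in the direction of transcription. Grey bars are genes, blue bars peaks the authors assigned to the gene, yellow bars peaks assigned to a neighbour, and red triangles G-boxes in the peaks. The peaks of DFR, LDOX and UGT78D2 reach across the start, that of MYBL2 lies wholly upstream, and UF3GT, UGT75C1 and PAP1 have none.

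In mock wt seedlings the 9 measured genes spanned a wide range of levels per length. MYBL2 stood at 65.7 ± 9.75 CPM per kb of exon (SD, n = 3), followed by UGT78D2 at 33.5 ± 6.40 and DFR at 9.02 ± 0.848. LDOX (4.81 ± 1.13), UGT75C1 (4.31 ± 1.03) and TT19 (4.13 ± 0.380) came next and did not differ from each other beyond their spread. PAP1 (2.25 ± 1.76), UF3GT (2.12 ± 0.525) and 5MAT (1.43 ± 0.513) were the lowest and likewise overlapped. The summed level of the 7 enzyme and transport genes, to which UGT78D2 contributed more than any other of the 7, was 86.6 to 96.9 CPM in mock wt, 95 to 119 in mock bzip68, 40.7 to 47.7 in H2O2 wt and 53.0 to 70.2 in H2O2 bzip68. UGT75C1 overlaps AT4G06175 and AT4G14100, and TT19 overlaps AT5G17230, each on the other strand. Whether counting used strand is not given in the sources used here, so the values of UGT75C1 and TT19 are uncertain. UGT78D2 has similar neighbouring glycosyltransferase genes with which reads could be shared, so its level is uncertain too.

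**Figure D2:**
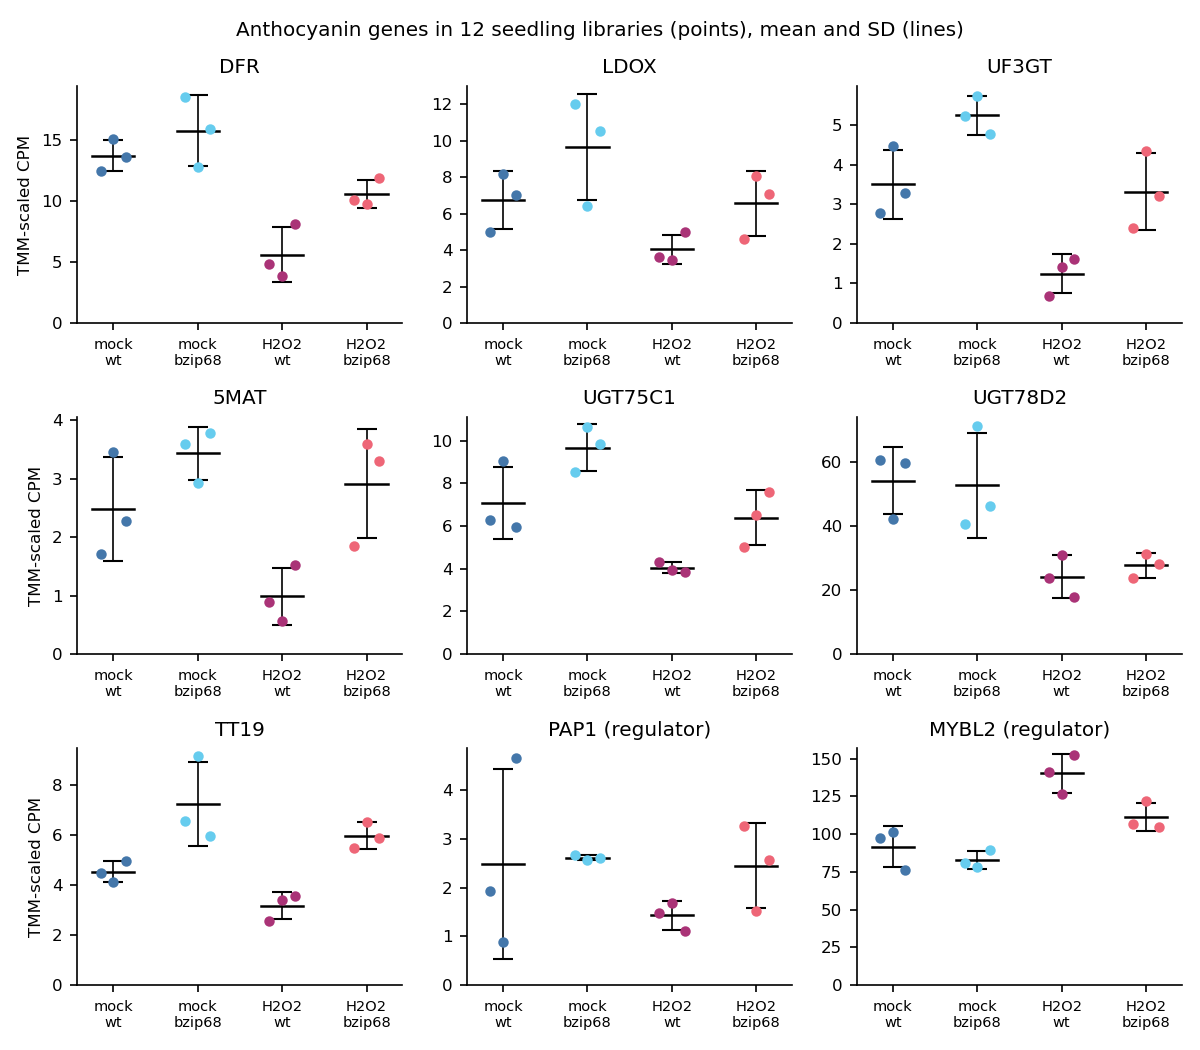
TMM-scaled CPM of the 9 measured genes in the 12 libraries. Points are libraries, long bars group means and whiskers SD of 3 libraries. For each of the 7 enzyme and transport genes all H2O2 wt points lie below all mock wt points, and for MYBL2 all lie above.

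In the wild type, H2O2 lowered most of the enzyme genes and raised the repressor MYBL2. Of the 9 genes tested, 5 fell (DFR, UF3GT, 5MAT, UGT75C1 and UGT78D2) and 1 rose (MYBL2) at an adjusted p under 0.05 in edgeR's quasi-likelihood test, where 4.72% of all genes fell, 5.02% rose and 9.74% were called in all. LDOX, TT19 and PAP1 did not pass. All 7 enzyme and transport genes were lower in every H2O2 wt library than in any mock wt library, as were 14.4% of all genes. MYBL2 was the only one of the 9 whose H2O2 wt libraries all lay above, as did 14.5% of all genes. In bzip68, 1 of the 9 genes fell, UGT78D2, where 3.28% of all genes fell, 4.11% rose and 7.39% were called in all by edgeR. The next paragraphs take the genes in the order of the pathway, and in each the 4 groups are mock wt, mock bzip68, H2O2 wt and H2O2 bzip68.

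DFR read 12.5, 15.1 and 13.6 CPM in mock wt and 4.82, 3.86 and 8.12 in H2O2 wt. In the mutant it read 18.6, 12.8 and 15.9 in mock and 10.0, 9.79 and 11.9 in H2O2. The H2O2 wt libraries were the lowest 3 of the 12 and overlapped with no other group. The wild-type response was a log2 fold change of -1.30 ± 0.23 (SE), an edgeR adjusted p of 0.00158, which remained called without the 2 libraries that stood apart (-1.08, adjusted p = 0.00266) and without any 1 of the 6 wild-type libraries. In bzip68 the response was -0.58 ± 0.22 (edgeR adjusted p = 0.136). That response passed in limma voom and, in edgeR, without the 2 libraries that stood apart (-0.71, edgeR adjusted p = 0.0353).

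LDOX read 5.02, 8.14 and 7.04 CPM in mock wt and 3.64, 3.48 and 4.97 in H2O2 wt, groups that are separate by a narrow margin. In bzip68 it read 12, 6.44 and 10.5 in mock and 4.58, 8.05 and 7.05 in H2O2, groups that overlap. Its log2 fold changes with H2O2 were -0.74 ± 0.28 in wt (edgeR adjusted p = 0.119) and -0.56 ± 0.26 in bzip68 (edgeR adjusted p = 0.253), neither past the threshold.

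UGT78D2, the most abundant of the enzyme genes, read 60.6, 42.3 and 59.8 CPM in mock wt and 23.8, 31.0 and 17.8 in H2O2 wt. In bzip68 it read 40.5, 71.4 and 46.4 in mock and 23.7, 31.4 and 28 in H2O2. Mock and H2O2 libraries did not overlap in either genotype, and the 2 genotypes overlapped in both treatments. Its response was -1.16 ± 0.23 in wt (edgeR adjusted p = 0.00493) and -0.93 ± 0.23 in bzip68 (edgeR adjusted p = 0.0256), and it was the 1 gene of the 9 called in both. The call in bzip68 was lost without mock bzip68 replicate 2, H2O2 bzip68 replicate 1 or H2O2 bzip68 replicate 3 (-1.09 to -0.65 over all fits without 1 library) but held without both libraries that stood apart (-0.65, edgeR adjusted p = 0.036).

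UF3GT had few counts, 26, 40 and 33 in mock wt against 7, 15 and 16 in H2O2 wt, which is 2.78, 4.46 and 3.27 CPM against 0.689, 1.41 and 1.62. In bzip68 it had 51, 49 and 44 counts in mock and 22, 40 and 30 in H2O2, or 5.23, 5.74 and 4.77 CPM and 2.40, 4.35 and 3.21 CPM. H2O2 wt was again the lowest group, mock bzip68 the highest, and neither overlapped with another. The responses were -1.48 ± 0.33 in wt (edgeR adjusted p = 0.00796, and -1.59 with 0.0142 without the 2 libraries that stood apart) and -0.66 ± 0.28 in bzip68 (0.204).

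UGT75C1, which adds a further glucose to the pigment core, read 6.30, 9.04 and 5.95 CPM in mock wt and 4.33, 3.95 and 3.86 in H2O2 wt. In bzip68 it read 8.51, 10.6 and 9.86 in mock and 5.02, 6.52 and 7.59 in H2O2. H2O2 wt was below every other group. The response was -0.80 ± 0.21 in wt (edgeR adjusted p = 0.0245) and -0.60 ± 0.20 in bzip68 (edgeR adjusted p = 0.0926), where limma voom called it. The wild-type call was lost without mock wt replicate 2 or any 1 of the 3 H2O2 wt libraries (-0.92 to -0.60), and without the 2 libraries that stood apart (-0.79, edgeR adjusted p = 0.0565).

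5MAT, which adds malonate to the glucose that UGT75C1 placed, was the lowest of the enzyme genes, with 16, 31 and 23 counts in mock wt and 9, 6 and 15 in H2O2 wt. These are 1.71, 3.46 and 2.28 CPM against 0.886, 0.564 and 1.52, all lower after H2O2. In bzip68 it read 3.59, 2.93 and 3.79 CPM in mock and 1.85, 3.59 and 3.31 in H2O2, which overlap. Its response was -1.32 ± 0.40 in wt (edgeR adjusted p = 0.046) and -0.24 ± 0.33 in bzip68 (edgeR adjusted p = 0.782). The wild-type call was the least firm of the 6, lost without mock wt replicate 2 or 3 or H2O2 wt replicate 1 or 2 (-1.76 to -1.02), in limma voom and in the fit with only the 2 wild-type groups. Without the 2 libraries that stood apart it was -1.03 (edgeR adjusted p = 0.143).

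TT19 read 4.48, 4.13 and 4.96 CPM in mock wt and 2.56, 3.39 and 3.55 in H2O2 wt. In bzip68 it read 6.56, 9.13 and 5.96 in mock and 5.45, 6.52 and 5.88 in H2O2. The mutant libraries were higher than all wild-type libraries of either treatment. The responses to H2O2, -0.52 ± 0.22 in wt (edgeR adjusted p = 0.182) and -0.27 ± 0.20 in bzip68 (edgeR adjusted p = 0.528), did not pass.

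MYBL2 moved the other way. MYBL2 read 97.7, 101 and 76.2 CPM in mock wt and 141, 127 and 153 in H2O2 wt. In bzip68 it read 81.0, 78.0 and 89.2 in mock and 107, 122 and 105 in H2O2. Mock libraries of both genotypes lay lowest, H2O2 bzip68 above them and H2O2 wt highest, with no overlap between these 3 levels. The response was 0.61 ± 0.13 in wt (edgeR adjusted p = 0.00655), called without any 1 of the 6 wild-type libraries and without the 2 that stood apart (0.68, 0.00355). In bzip68 it was 0.43 ± 0.13 (edgeR adjusted p = 0.0639), which passed in DESeq2 and limma voom.

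PAP1, the activator, had 18, 8 and 47 counts in mock wt, 26, 22 and 24 in mock bzip68, 15, 18 and 11 in H2O2 wt and 30, 14 and 24 in H2O2 bzip68. Mock wt replicate 3 alone held more than the other mock wt libraries together, and all groups overlapped except mock bzip68 and H2O2 wt. The response was -0.81 ± 0.46 in wt (95% interval -1.80 to 0.17, edgeR adjusted p = 0.341) and ran from -1.20 to 0.02 when libraries were left out or tools changed. In bzip68 it was -0.09 ± 0.44 (95% interval -1.02 to 0.84, edgeR adjusted p = 0.947). These intervals allow a change of PAP1 in either direction.

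In bzip68 all 7 enzyme and transport genes had negative values with H2O2, with a median of -0.58 and a range of -0.93 to -0.24, and 4 of them (UGT75C1, UF3GT, DFR and UGT78D2) had H2O2 libraries wholly below mock, as did 10.7% of all genes. MYBL2 had them wholly above, as did 11.3%. In wt the same median was -1.16 and the range -1.48 to -0.52. Over the 9 genes the medians were -0.56 in bzip68 and -0.81 in wt, beside a median near 0 over all genes in both. In the same mutant comparison 6 of 12 root markers fell by edgeR, with a median of -0.80 over the 12, and in wt their median was -0.32. The part of root RNA in the results for the anthocyanin genes was not tested.

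**Figure D3:**
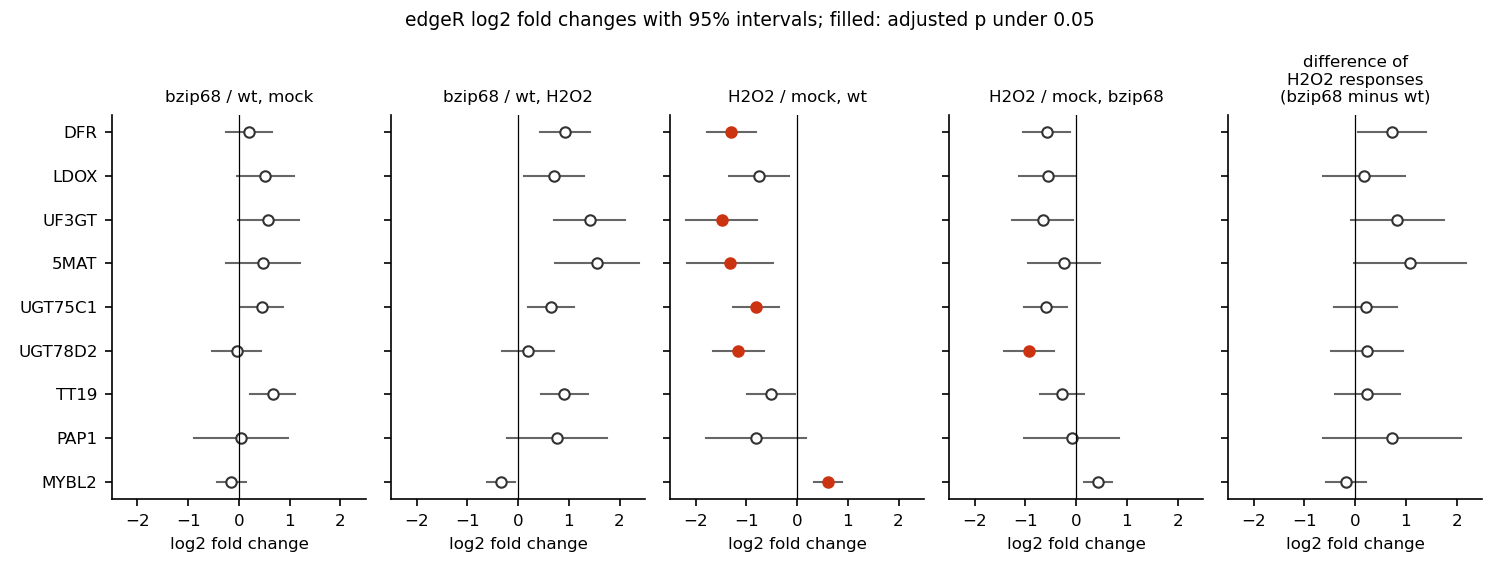
Log2 fold changes of the 9 genes from edgeR with 95% intervals in the 5 comparisons, filled where the adjusted p was under 0.05. In H2O2 against mock, 6 genes are filled in wt and 1 in bzip68, and none is filled in the genotype comparisons or in the difference of responses.

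Between genotypes after H2O2, edgeR called 0 of the 9 genes and 0.0714% of all genes, or 13, at an adjusted p under 0.05, while all enzyme genes had higher means in bzip68 than in wt. All 7 enzyme and transport genes had positive log2 fold changes, with a median of 0.91 and a range of 0.19 to 1.56, and stayed positive under every alternative that was run. The largest were 5MAT at 1.56 ± 0.39 (edgeR adjusted p = 0.206), UF3GT at 1.41 ± 0.33 (0.185), DFR at 0.92 ± 0.23 (0.215) and TT19 at 0.91 ± 0.22 (0.191). LDOX stood at 0.70 ± 0.28 (edgeR adjusted p = 0.473), UGT75C1 at 0.66 ± 0.22 (0.382) and UGT78D2 at 0.19 ± 0.24 (0.823, 95% interval -0.31 to 0.70). PAP1 was at 0.77 ± 0.47 (edgeR adjusted p = 0.625) and MYBL2, with the opposite sign, at -0.33 ± 0.13 (0.46).

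At an unadjusted p under 0.05 edgeR held 7 of the 9 genes, against 9.23% of all genes. DESeq2 called 1 of the 9, UF3GT (DESeq2 adjusted p = 0.0498), and limma voom 0, where they called 72 and 20 of all genes. TT19, UGT75C1, UF3GT, 5MAT and DFR were higher in every H2O2 bzip68 library than in any H2O2 wt library, against 8.49% of all genes, and MYBL2 was lower in every one, against 8.18%. Without the 2 libraries that stood apart, the values were 1.27 for 5MAT (edgeR adjusted p = 0.332), 1.52 for UF3GT (0.209), 0.71 for DFR (0.289), 0.96 for TT19 (0.175) and 0.41 for UGT78D2 (0.506). The H2O2 wt libraries of this comparison are those of the wild-type response above, so the low wild-type levels enter both. Root markers had positive values for 4 of 12 between genotypes after H2O2, with a median of -0.22 and 0 called by edgeR. The part of root RNA here was not tested.

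Between genotypes in mock seedlings, edgeR called 0 of the 9 genes where it called 0.214% of all genes, or 39. At an unadjusted p under 0.05 it held 2, TT19 and UGT75C1, against 10.1% of all genes. DESeq2 called 0 of the 9 and limma voom 2, UGT75C1 and LDOX, where they called 216 and 787 of all genes. TT19 was at 0.67 ± 0.21 (edgeR adjusted p = 0.243), UF3GT at 0.58 ± 0.28 (0.507), LDOX at 0.52 ± 0.26 (0.527), 5MAT at 0.48 ± 0.34 (0.705), UGT75C1 at 0.45 ± 0.20 (0.461) and DFR at 0.20 ± 0.21 (0.831). UGT78D2 was at -0.04 ± 0.23 (95% interval -0.53 to 0.44) and MYBL2 at -0.15 ± 0.13 (-0.43 to 0.13). TT19 and UF3GT had no overlap between genotypes, against 6.87% of all genes. Root markers lay on the same side, with positive values for 12 of 12, a median of 0.53 and 0 called by edgeR. Their part in these values was not tested.

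The difference between the 2 responses, an interaction term in the same fit, had positive values for all 7 enzyme and transport genes, meaning a smaller fall in bzip68, but edgeR called 0 of the 9 genes and 0.0% of all genes (DESeq2 called 24 genes). At an unadjusted p under 0.05 edgeR held 1 of the 9 and 6.47% of all genes, and DESeq2 and limma voom called 0 of the 9. The 1 gene was DFR, at 0.72 ± 0.32 (95% interval 0.05 to 1.39, edgeR adjusted p = 0.757). 5MAT was at 1.08 (95% interval -0.02 to 2.19) and UF3GT at 0.83 (-0.09 to 1.75). LDOX, UGT75C1, UGT78D2 and TT19 lay between 0.18 and 0.24, and MYBL2 at -0.18 (-0.58 to 0.21). Without the 2 libraries that stood apart, DFR dropped to 0.38, 5MAT to 0.70 and LDOX to -0.13, while UF3GT was at 1.00 and UGT78D2 at 0.73. The upper bounds for 5MAT, UF3GT and DFR exceed the size of their wild-type responses, and the lower bounds for 5MAT and UF3GT are below 0. The larger number of genes called in wt than in bzip68 does not show that the responses differ.

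The other genes of the pathway were grouped in 6 lists. In wt, H2O2 lowered 8 of 10 tested genes of the early flavonoid list, which makes the precursors that anthocyanins share with flavonols, where edgeR called 4.72% of all genes lower. Without the 2 libraries that stood apart the count was again 8, with UGT78D1 in place of UGT73C6. F3H, flavanone hydroxylase, fell by 1.67 on the log2 scale, from 123 to 38.8 CPM (edgeR adjusted p = 1.84e-06). FLS1, flavonol synthase, which draws on the same substrate as DFR, fell by 0.85 (0.000518), and UGT89C1, a flavonol rhamnosyltransferase, fell by 1.01 (edgeR adjusted p = 0.000545). In bzip68 the count was 5 of 10, where 3.28% of all genes fell, with F3H falling by 0.90, from 96.2 to 51.6 CPM (edgeR adjusted p = 0.00075), UGT89C1 by 0.64 (0.0195) and UGT78D1, another flavonol glycosyltransferase, by 0.67 (0.0374). The remaining 2 were CHS, chalcone synthase, and CHIL, an enhancer of flavonoid synthesis, named after their values were seen. Without the 2 libraries that stood apart the count in bzip68 was 2, F3H and CHIL, and the calls of UGT89C1 (-0.55, edgeR adjusted p = 0.051), UGT78D1 (-0.48, 0.141) and CHS (-0.46, 0.112) were lost. The medians over this list were -0.84 in wt and -0.55 in bzip68.

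For the next 2 lists too, edgeR called 4.72% of all genes lower in wt and 3.28% in bzip68. Of the 8 phenylpropanoid genes, which supply both flavonoids and lignin, 1 fell in wt (4CL3, -1.37, edgeR adjusted p = 0.000138) and 3 in bzip68 (4CL1 at -0.71, 4CL2 at -0.78 and 4CL3 at -0.67). The calls of 4CL1 (-0.48, edgeR adjusted p = 0.0542) and 4CL2 (-0.61, 0.0601) were lost without the 2 libraries that stood apart. Both were also lost in the fit on the mutant's groups alone. Of 6 tested genes of other anthocyanin decoration and transport, SAT, which adds sinapate, fell in wt (-1.11, edgeR adjusted p = 0.00258) and 3AT1, a coumaroyl transferase, fell in bzip68 (-0.89, edgeR adjusted p = 0.0113). SAT was at -0.44 in bzip68 (edgeR adjusted p = 0.25). In wt 3AT1 was at -0.64 (edgeR adjusted p = 0.0615), which passed in limma voom, with the block and with only the groups compared. Its call in bzip68 could be lost when a single library was left out.

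Among the regulators outside the 10 genes, those that passed in edgeR all fell, where it called 4.72% of all genes lower in wt and 3.28% in bzip68. Of 11 negative regulators, MYB4 (-0.77, edgeR adjusted p = 0.00376) and LBD39 (-0.47, 0.0308) fell in wt, and LBD39 fell in bzip68 (-0.50, 0.0306). MYB3, named after its values were seen, was higher with H2O2 in wt, at 0.67 (edgeR adjusted p = 0.0516). It did not pass in edgeR but passed in DESeq2 and limma voom. LBD39 lost its wild-type call without the 2 libraries that stood apart (-0.37, edgeR adjusted p = 0.109) and without mock wt replicate 1 or 2 or H2O2 wt replicate 2 or 3 (-0.53 to -0.36). Of 10 tested regulators of flavonols and light responses, edgeR called 4 lower in wt and 0 in bzip68. These were HYH, a bZIP factor of light signalling, from 29.9 to 8.76 CPM (-1.76, edgeR adjusted p = 0.000479), the flavonol activators MYB12 (-1.19, 0.00541) and MYB111 (-1.15, 0.00738), and COP1, a light signalling repressor named after its values were seen (-0.52, 0.0182). MYB111 lost its call without mock wt replicate 3, and COP1 without replicate 1 or 3 of mock wt or of H2O2 wt. In bzip68 all 4 also had negative values. HYH was at -0.60 (edgeR adjusted p = 0.197) and MYB12 at -0.33 (0.543). MYB111 was at -0.55 (edgeR adjusted p = 0.216) and COP1 at -0.35 (0.141). There limma voom called MYB111 and COP1, and 2296 of all genes. EGL3 and TTG1, the 2 tested of 7 other members of the activating complex, did not pass, with wt responses of -0.36 ± 0.29 and 0.09 ± 0.11. Of the 47 genes tested in the 6 lists, edgeR called 16 in wt and 10 in bzip68 with H2O2, where it called 9.74% and 7.39% of all genes. Without the 2 libraries that stood apart these were 15 and 5. Leaving out single libraries gave 12 to 21 in wt and 1 to 12 in bzip68. The mutant count was 12, 4 or 1 (F3H) when its mock library 1, 2 or 3 was left out. Leaving out its H2O2 library 1, 2 or 3 gave 3, 5 or 2. With only the groups compared the counts were 21 in wt and 3 in bzip68. DESeq2 called 20 in wt and 10 in bzip68, where it called 2010 and 1587 of all genes. For limma voom these were 21 and 16, where it called 2888 and 2296 of all genes. Between genotypes in mock, edgeR called 0 of the 47, DESeq2 1 and limma voom 2, where they called 39, 216 and 787 of all genes. An unadjusted edgeR p under 0.05 was held by 8 of the 47 and by 10.1% of all genes. After H2O2 edgeR called 0, DESeq2 2 and limma voom 0, where they called 13, 72 and 20 of all genes. Such a p was held by 18 of the 47 and by 9.23% of all genes. For the difference of responses edgeR called 0, DESeq2 1 and limma voom 0, where they called 0, 24 and 0 of all genes. Here 12 had such a p, as did 6.47% of all genes.

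Peaks of the larger list were assigned to 13 of the 57 genes in these lists, where 22.6% of the genes in the count table had one. They were named after the peaks were seen and comprise PAL2, 4CL1, 4CL2, CHS, UGT89C1, ABCC2, CPC, MYB3, MYB7, MYB11, HY5, PIF4 and HAT1. Of the 57, 4CL1 and CPC, a small MYB repressor, were also in the shorter list, which covered 3.88% of genes.

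**Figure D4:**
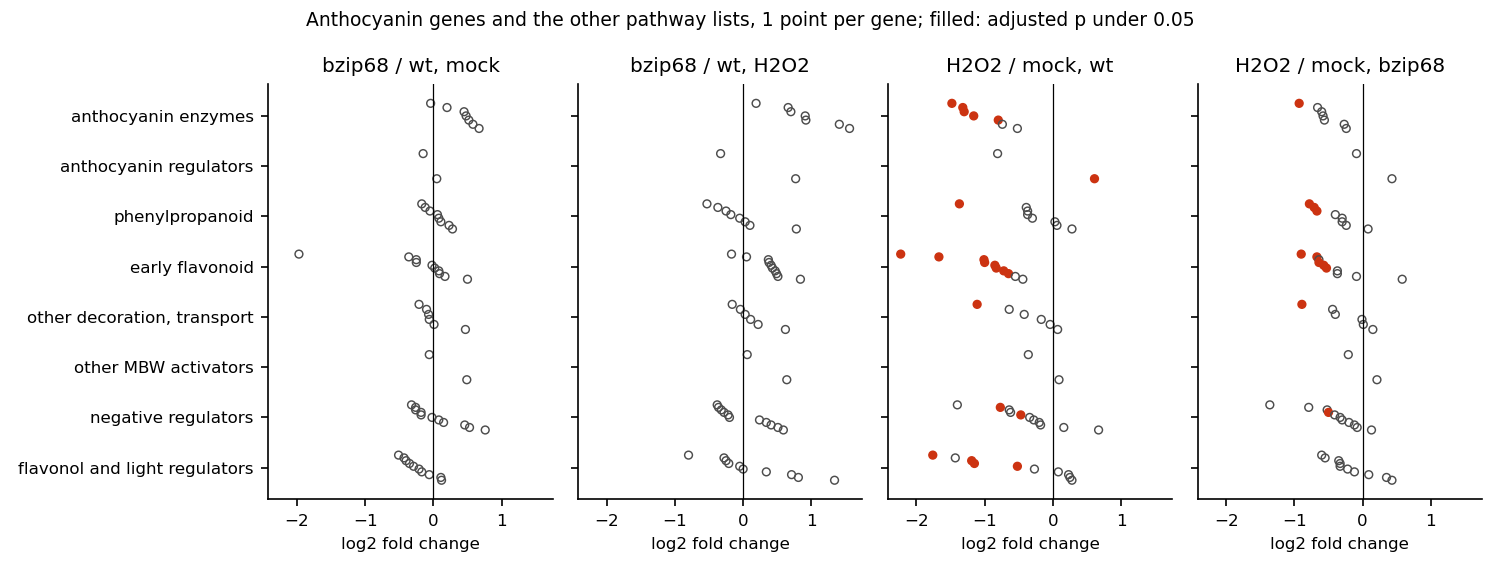
Log2 fold changes from edgeR of the anthocyanin genes and of the 6 other lists, 1 point per gene tested, filled where the adjusted p was under 0.05. In H2O2 against mock, filled points of the early flavonoid list are all below 0 in both genotypes, and MYBL2 is the only filled point above 0.

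The libraries' mean standardised level of the 7 enzyme and transport genes served as a profile for finding genes with the most similar pattern. Among 14469 genes with a mean of at least 5 CPM outside all lists, the highest Pearson r over the 12 libraries were those of AT1G22440 (0.928), dNK (AT1G72040, 0.923), AT5G47610 (0.914), FIB1 (AT5G52470, 0.908) and RPI2 (AT2G01290, 0.907). The 12 libraries fall in 4 groups and share treatment, so these values describe a ranking.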

How the data were processed

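RNA was sequenced from 18 samples and ChIP DNA from 6. The authors deposited whole-number counts per gene for the RNA samples and lists of ChIP peaks with a score per peak, which per the file headers is the log10 p-value times a negative constant. Per the submitters' processing notes, which give no roles, TAIR10, ChIPseeker, MACS 1.4.3, RSEM 2.1.30 and TopHat2 2.1.0 were used. The sources used here do not say whether RSEM estimates were rounded or whether ChIP samples were pooled for peak calling. Of the count table, 12 per-sample columns matched sample labels. Another 6 without a match were left unused, and the low light groups are not analysed here.

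Counts were filtered with filterByExpr by group, scaled by TMM and fitted with 1 mean per group over all 12 libraries (4 groups, 8 residual degrees of freedom) in edgeR 4.0.16 under R 4.3.3, with the robust quasi-likelihood test. The 5 comparisons were adjusted by Benjamini-Hochberg over 18205 genes, with calls at an adjusted p under 0.05. CPM values use TMM-scaled library sizes, and standard errors were derived from each F statistic. The script was tested on simulated counts. Totals of 8997073 to 10262992 counts per library leave UF3GT, 5MAT and PAP1 with few counts, where counting error is large. Alternatives were DESeq2 1.42.0, limma 3.58.1 voom with library weights, other scalings, no filter, the replicate number as a block, only the groups compared, each library left out and both libraries that stand apart left out.

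Same-numbered libraries deviated together from their group means only for H2O2 against mock in bzip68 (correlations of 0.374, 0.487 and 0.178). The numbers may pair the libraries there, a reading of the data since the labels state no pairing. The main fit held no such pairing, so values given without mention of the block are unpaired, also for that comparison. Pairing entered only the alternative with the replicate number as a block. Adjusted p-values with the block changed no call of the 9 genes.

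Peak positions are the authors' on TAIR10. RefSeq annotation and sequence are of TAIR10.1. Distances given as from a start are from RefSeq starts unless credited to the authors, and the 2 annotations can differ. The MYBL2 peak lies at -432 bp by RefSeq and at -600 bp by the authors. Of 5343 genes with a peak found in RefSeq, 2163 shared at least 1 end with the authors' gene, so distances and window counts depend on the annotation. Of 5424 genes with a peak, 5109 had coding exons in RefSeq and all 5109 overlapped the authors' gene on the same chromosome, and no peak ran past a chromosome end. Motifs were searched on both strands. The 10 genes, the pathway and marker lists and the tests were chosen with earlier results of these data known. Named pathway genes were up to 3 per list and comparison that passed, ranked by adjusted p, or the top 1 where none passed, and exceptions are stated.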

Additional observations from a re-analysis of the deposited data

How the results depend on the processing

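Over the 9 genes and 5 comparisons, no log2 fold change that was called changed direction under any alternative. Counts of the 9 genes called moved by over 1.5 times in 3 comparisons. In mock bzip68 against wt, 0 by edgeR became 2 in limma voom. In H2O2 bzip68 against wt, 0 became 1 in DESeq2. In H2O2 against mock in bzip68, 1 became 2 in DESeq2, 4 in limma voom and 2 without both libraries that stood apart, and ran from 0 to 2 when single libraries were left out. In H2O2 against mock in wt, the count of 6 was 5 in limma voom, 5 with only the groups compared and 4 without both libraries that stood apart, and ran from 4 to 6 when single libraries were left out. In the genotype comparisons and the difference of responses it ran from 0 to 0. The cause of these moves was not tested.

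Counts over all genes moved more. For mock bzip68 against wt, 39 genes became 216 in DESeq2, 787 in limma voom, 17 with only the groups compared and 73 without both libraries that stood apart, and ran from 8 to 122 with single libraries left out (122 without mock wt replicate 3). For H2O2 bzip68 against wt, 13 became 72 in DESeq2, 20 in limma voom, 31 with only the groups compared and 27 without both libraries, and ran from 8 to 29. For H2O2 against mock, 1773 in wt became 2888 in limma voom and ran from 1126 to 2289, and 1346 in bzip68 became 2296 in limma voom and 855 with only the groups compared and ran from 719 to 1753. For the difference of responses, 0 by edgeR became 24 in DESeq2 and ran from 0 to 26 (26 without mock wt replicate 3).

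With the replicate number as a block, 21 genes were called in H2O2 bzip68 against wt in place of 13, and the block changed no other count by over 1.5 times. Of the 6 peaks at the 10 genes in the larger list, 0 were in the shorter list.

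UF3GT, 5MAT and PAP1 had few counts, and their intervals were the widest of the 9 genes. PAP1 also scattered between replicates, with 18, 8 and 47 counts in mock wt. The part of depth in these widths was not tested.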

Other observations

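UGT73C6, a flavonol glucosyltransferase of the early flavonoid list, had a pattern unlike that of the anthocyanin genes. It read 121, 170 and 51.6 CPM in mock wt, against 27.6, 32.5 and 27.3 in mock bzip68, 28.1, 21.4 and 23.6 in H2O2 wt and 24.9, 33.6 and 71.9 in H2O2 bzip68. All mock wt libraries lay above all mock bzip68 and all H2O2 wt libraries. The fall with H2O2 in wt passed (-2.23 ± 0.47, edgeR adjusted p = 0.0149). That call was lost with the replicate number as a block (edgeR adjusted p = 0.0572), with only the groups compared, without H2O2 wt replicate 2 or 3 and without the 2 libraries that stood apart (-2.14, edgeR adjusted p = 0.108). The lower level in mock bzip68 (-1.97 ± 0.46) did not pass in edgeR (adjusted p = 0.166) but passed in DESeq2, in limma voom and without mock wt replicate 3. The difference of responses was 2.81 (95% interval 1.34 to 4.27, edgeR adjusted p = 0.588) and passed in DESeq2 and without mock wt replicate 3. UGT73C6 sits among similar genes with which reads could be shared, so its values are uncertain, and it was singled out after its values were seen.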
